A study of Mus musculus with 19 samples.

Results

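The 10 genes described here encode the transcription factors that specify and maintain heart muscle: Gata4, Gata6, Nkx2-5, Tbx5, Tbx20, Mef2a, Mef2c, Hand2, Hey2 and Irx4. They were chosen by name, as textbook regulators of the cardiac lineage, and each matched 1 row of the 56066 genes in the deposited table. All 10 passed the filter on low values and were among the 14812 genes tested. RNA was sequenced from mouse hearts in 5 groups. PDK1 conditional knockout (cKO) hearts were at postnatal day 7 (P7 cKO, 3 libraries) and day 21 (P21 cKO, 3 libraries). Wild-type (WT) hearts were at day 1 (P1 WT, 3 libraries), day 7 (P7 WT, 5 libraries) and day 21 (P21 WT, 4 libraries). The labels gave genotype and age only, and the study's design text gives P0 where the labels give P1. The Cre driver, the deleted exons, the strain and the sex were not named, but the titles of 2 of the 4 P21 WT libraries, numbers 2 and 3, carry the mark B6 and no other title does. No label ties the libraries to single animals, and p-values therefore measure the spread between these libraries, which may be technical. One further P21 library, labelled cKO but with a title lacking the KO mark of the other cKO libraries, was not placed in a group.

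These factors act as a network. GATA4, GATA6, NKX2-5 and the T-box factors TBX5 and TBX20 bind one another and the promoters of genes for sarcomere proteins, natriuretic peptides and ion channels. MEF2 factors join the same promoters and carry calcium and stress signals to them. HAND2 is a basic helix-loop-helix factor needed for the right ventricle of the mouse embryo, while HEY2 and IRX4 keep the atrial programme out of ventricular muscle. In the mouse, loss of most of these genes is lethal before birth, and much less is described of their levels in the weeks after it.

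Levels were given in TPM, a unit corrected for gene length and library size, which allows levels of different genes to be set side by side within a library. Changes were tested with limma on log2(TPM + 1), which understates the change of low genes, and an adjusted p (Benjamini-Hochberg over all genes tested) under 0.05 passed. PDK1 can name the product of Pdpk1 or of Pdk1. Neither was lower in cKO hearts in the test, with Pdpk1 changed by -0.15 ± 0.12 at P21 (log2, SE; adjusted p = 0.366) and Pdk1 by 0.36 ± 0.12 (adjusted p = 0.0473). All 3 P21 cKO libraries nonetheless lay below all 4 P21 WT libraries for Pdpk1 (4.95 to 5.55 TPM in cKO and 6.17 to 7.65 TPM in WT), -0.37 relative to the median gene, a state found in 3.07% of all genes, and at P7 the groups overlapped. The knockout was therefore taken from the labels alone. From 12422 to 13797 genes reached 1 TPM in each grouped library. The median tested gene moved by 0.22 (log2) in P21 cKO against P21 WT and by -0.47 in P21 WT against P7 WT, so each change below is also given relative to that median gene where it matters. Summed cardiomyocyte markers stood between 32924 and 38899 TPM in every group. Library 3 of P1 WT differed from the other P1 libraries by gene length. Its genes over 4000 bases stood at -0.33 (log2, by medians of deviations) relative to its genes under 2000 bases. Deviations were taken from the mean of the other libraries of the group. The value was 0.17 in both other P1 libraries, whose reference included library 3.

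In P1 WT hearts GATA factors led the set and T-box factor TBX5 was the scarcest. The order of mean TPM was Gata6 (103), Gata4 (98.1), Nkx2-5 (89.4), Mef2a (76.1), Irx4 (53.8), Hey2 (52.5), Hand2 (49.8), Tbx20 (38.95), Mef2c (19.4) and Tbx5 (11.8), and the libraries of every pair of neighbours in that order overlapped. In P7 WT hearts Gata4 (101) stood alone at the top, above Mef2a (78.03) and Nkx2-5 (68.9), and Hey2 (6.99) had moved to the last place, where it overlapped with Tbx5 (8.31). In P21 WT hearts Mef2a (49.5), Nkx2-5 (45.1) and Gata4 (40.01) led with overlapping libraries, and Hey2 (2.16) lay below every other factor without overlap. In P21 cKO hearts the order was Mef2a (55.6), Gata4 (45.8), Nkx2-5 (44.02), Gata6 (26.2), Irx4 (25.3), Hand2 (22.7), Mef2c (20.7), Tbx20 (18.7), Tbx5 (8.18) and Hey2 (3.69). By its mean Irx4 stood above Hand2 and Mef2c there, against below both in P21 WT. The libraries of Irx4 overlapped with those of both in P21 cKO, and with those of Mef2c but not of Hand2 in P21 WT. Summed over the 10 factors, the level was 472, 639 and 667 TPM in P1 WT, 421 to 471 TPM in P7 WT and 232 to 258 TPM in P21 WT.

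**Figure D1:**
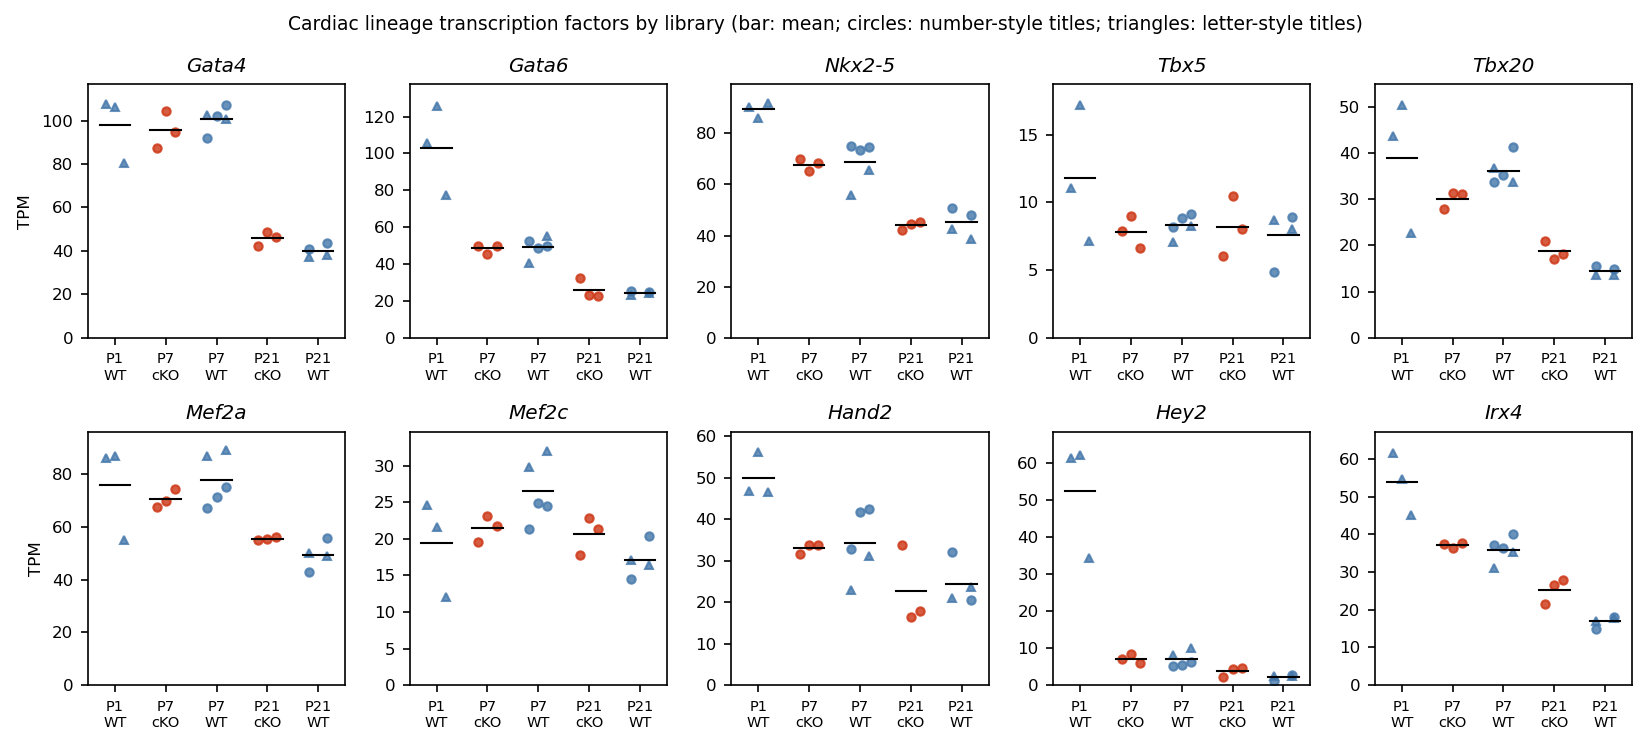
TPM of each of the 10 factors in each library, by group, with the mean of each group as a bar (red, cKO; blue, WT; circles, libraries titled with a plain number; triangles, libraries titled with a letter code). Hey2 stands at 34.2 to 62.1 TPM in P1 WT and at 10.1 TPM or less in every later library, and Irx4 at P21 separates cKO (21.4 to 27.8 TPM) from WT (14.8 to 18.1 TPM).

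With age, most of the set fell in WT hearts. Between P7 and P1, 5 of the 10 factors were lower at P7 (Hey2, Gata6, Hand2, Irx4 and Nkx2-5), where 14.7% of all genes tested were called lower, and 1 was higher (Mef2c), where 13.8% were called higher. The median change of the 10 was -0.46 (log2), beside 0.00 over all genes. The same 5 lower factors were the ones whose P7 and P1 libraries did not overlap, a state found in 17.1% of all genes in that direction. Between P21 and P7, 9 of 10 passed as lower, all but Tbx5, but 64.4% of all genes tested were called lower as well, and the median change of the 10 was -0.82 beside -0.47 over all genes. Groups of 8 factors did not overlap, beside 54.1% of all genes. Between P21 and P1, 8 were lower (all but Tbx5 and Mef2c), beside 57.1% of all genes, and 7 did not overlap, beside 56.1%. The median change was -1.25 for the 10 and -0.48 for all genes. In bulk hearts, fewer cells of a type and less RNA per cell cannot be told apart.

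TPM sums to 1 fixed total, so a shift of the whole table says nothing of the amount of RNA in a heart, and the fit was repeated after scaling each library by the median ratio over genes. On that scale 5 factors were lower in P21 WT than in P7 WT (Gata4, Gata6, Tbx20, Hey2 and Irx4), beside 27.4% of all genes, and Nkx2-5, Mef2a, Mef2c and Hand2 lost their call. Between P21 and P1, 7 were lower, beside 29.6% of all genes, and Mef2c was higher, beside 27.6%. The P7 to P1 contrast kept 5 lower factors, beside 16.1% of all genes, and 1 higher.

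At P7 no change with the knockout passed in the set. None of the 10 factors passed in P7 cKO against P7 WT in limma, none had an unadjusted p under 0.05, and 3 of all genes tested passed (0.0203%, with 494 at an unadjusted p under 0.05). Changes ranged from -0.29 (Tbx20) to 0.23 (Hey2) on the log2 scale, with a median of -0.09 beside -0.02 over all genes. Tbx20 was the only factor whose cKO and WT libraries did not overlap, a state that 2.73% of all genes shared in the lower direction.

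At P21, 2 of 10 factors were higher in cKO than in WT hearts, Irx4 and Hey2, beside 19.5% of all genes tested, and none was lower, beside 1.77%. The share of the factors is thus close to the share of all genes. Their median change was 0.21 (log2) beside 0.22 over all genes. Libraries of Irx4 and Tbx20 did not overlap, beside 28.5% of all genes in that direction. After median-ratio scaling none of the 10 was higher, beside 4% of all genes, and 1 was lower (Nkx2-5), beside 5.33%. When the P21 effect of the knockout was set against its P7 effect in limma, 0 of the 10 passed, beside 7.56% of all genes (1120), with 3 factors (Irx4, Tbx20 and Mef2c) and 4361 genes at an unadjusted p under 0.05.

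**Figure D2:**
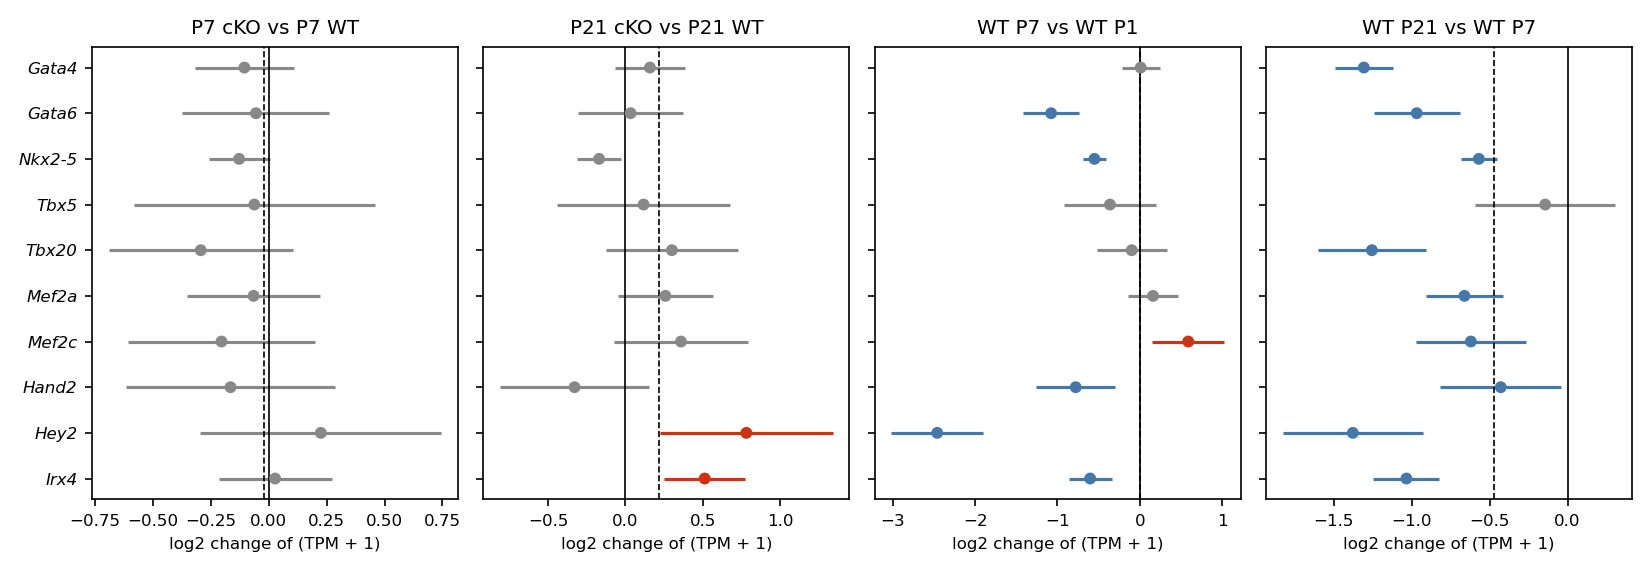
Change of each factor in 4 comparisons, as log2 change of TPM + 1 with its 95% confidence interval from limma (red, higher at an adjusted p under 0.05; blue, lower; grey, not passing), with the first-named group minus the second. The dashed line is the median of all genes tested: most factors in P21 WT against P7 WT lie left of it, while in P21 cKO against P21 WT they lie on both sides.

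HEY2 and IRX4 mark ventricular muscle. Theirs were the 2 calls with genotype, at P21, where 19.5% of all genes were called higher. Neither call held after median-ratio scaling (limma adjusted p of 0.156 for Irx4 and 0.111 for Hey2). Of 5 ventricular markers none was higher in P21 cKO and 1 was lower (Fhl2), beside 1.77% of all genes. HEY2 is a repressor made in response to NOTCH signals that holds atrial genes silent in the ventricle. IRX4 is a homeodomain factor found in ventricular and not atrial muscle, and in the chick embryo it represses an atrial myosin gene in the ventricle. Since both genes changed with age and at P21, the 250 bases before the start of each (RefSeq, mouse GRCm38.p6) are shown, with capitals for matches to 2 motifs, the RBPJ site TGGGAA of the NOTCH pathway and the T-box site GGTGTG, on either strand. The Hey2 window (chr10:30842784-30843033, minus strand) held 1 of each, the RBPJ match as TTCCCA beginning 207 bases before the start and the T-box match as CACACC beginning 129 bases before it. The Irx4 window (chr13:73260247-73260496, plus strand) held no match to these, nor to the common GATA site AGATAA or its variant with a first T, TGATAA, the NKX2-5 site TNAAGTG or the E-box site CACGTG. Of 32851 such windows over all genes, 21.6% held the RBPJ letters, 16.3% the T-box, 16.6% the GATA, 10.1% the NKX2-5 and 6.02% the E-box letters.
Hey2: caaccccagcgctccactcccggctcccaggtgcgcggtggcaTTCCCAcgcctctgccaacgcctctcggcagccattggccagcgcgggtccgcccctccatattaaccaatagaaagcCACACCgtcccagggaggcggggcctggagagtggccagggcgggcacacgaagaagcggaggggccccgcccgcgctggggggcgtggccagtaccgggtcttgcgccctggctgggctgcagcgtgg
Irx4: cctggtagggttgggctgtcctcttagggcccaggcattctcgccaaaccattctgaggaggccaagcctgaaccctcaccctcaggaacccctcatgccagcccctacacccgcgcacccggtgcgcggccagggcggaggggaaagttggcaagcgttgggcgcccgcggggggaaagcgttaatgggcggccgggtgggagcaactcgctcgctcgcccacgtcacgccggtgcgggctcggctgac
Starts are those of RefSeq, and the windows of Hey2 and Irx4 reach into the gene positions given below, which are from GENCODE. Matches are a description of these windows only. Windows were searched for 7 of the 10 factors, 9 windows in all, and the remaining factors were not searched. The window of Hand2 is shown with its values. Beyond Hey2 and Hand2, the only matches were 1 RBPJ match before Nkx2-5 and 1 T-box match in 1 of 3 windows of Mef2c.

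Hey2 (ENSMUSG00000019789; mm10, chromosome 10, 30832359 to 30842801, minus strand) had the largest fall with age of the 10. Its level in WT hearts was 61.2, 62.1 and 34.2 TPM at P1, 8.1, 10.1, 5.16, 5.49 and 6.08 TPM at P7, and 2.4, 2.34, 1.15 and 2.73 TPM at P21. No library of one age overlapped with another age, and library 3 of P1, the low one at P1, was still over 3 times the highest P7 value. Relative to P1 the level in P7 WT fell by 2.46 ± 0.26 on the log2 scale (limma, adjusted p = 1.56e-05), and P21 WT was lower than P7 WT by a further -1.38 ± 0.21 (adjusted p = 2.84e-05). Both falls held after median-ratio scaling, at -2.44 and -0.95.

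In cKO hearts Hey2 stood at 6.94, 8.28 and 6.04 TPM at P7, against 5.16 to 10.1 TPM in P7 WT, and the groups overlapped (log2 change 0.23 ± 0.24, limma adjusted p = 1). At P21 it stood at 2.13, 4.44 and 4.51 TPM in cKO, against 2.4, 2.34, 1.15 and 2.73 TPM in WT. Libraries 59 and 64 of P21 cKO were above every WT library, and library 55 lay inside the WT range. The change was 0.78 ± 0.26 (log2, adjusted p = 0.046), or 0.56 relative to the median gene. This call passed narrowly: it was lost in 7 of 11 alternative settings, with log2 changes of 0.56 to 1.11 and adjusted p of 0.00107 to 0.143, and on leaving out any of 13 of the 18 libraries, to an adjusted p of 0.189 without library 57 of P21 WT.

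Irx4 (ENSMUSG00000021604; mm10, chromosome 13, 73260479 to 73269608, plus strand) fell by steps with age. Its level in WT hearts was 61.7, 54.7 and 45.2 TPM at P1, 30.9, 35.3, 37.1, 36.4 and 39.98 TPM at P7, and 16.99, 17.9, 14.8 and 18.1 TPM at P21. The 3 ages did not overlap. Irx4 was lower in P7 WT than in P1 WT by -0.60 ± 0.12 (log2; limma, adjusted p = 0.0021) and P21 WT against P7 WT gave -1.03 ± 0.10 (adjusted p = 2.08e-07), which was -0.56 relative to the median gene.

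At P7, Irx4 measured 37.5, 36.5 and 37.7 TPM in cKO, inside the 30.9 to 39.98 TPM of WT, with a log2 change of 0.03 ± 0.11 (95% interval -0.22 to 0.27). At P21 it measured 21.4, 26.5 and 27.8 TPM in cKO, against 16.99, 17.9, 14.8 and 18.1 TPM in WT, so that all 3 cKO libraries lay above all 4 WT libraries and below every P7 library. The change was 0.51 ± 0.12 (log2; limma, adjusted p = 0.0108), or 1.43-fold on the TPM + 1 scale, and 0.29 relative to the median gene. Against the number-titled WT libraries alone it was 0.59 (adjusted p = 0.0151). The call was lost after median-ratio scaling (0.26, adjusted p = 0.156), with the ungrouped library counted as cKO (0.43) and without library 57 of P21 WT, the lowest of its group (0.39, adjusted p = 0.0665). The P21 effect minus the P7 effect was 0.48 ± 0.16 (adjusted p = 0.0658), past an unadjusted threshold only, and it passed without library 3 of P1 WT (adjusted p = 0.0351), library 60 of P21 WT (0.0435) or library 55 of P21 cKO (0.0325).

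**Figure D3:**
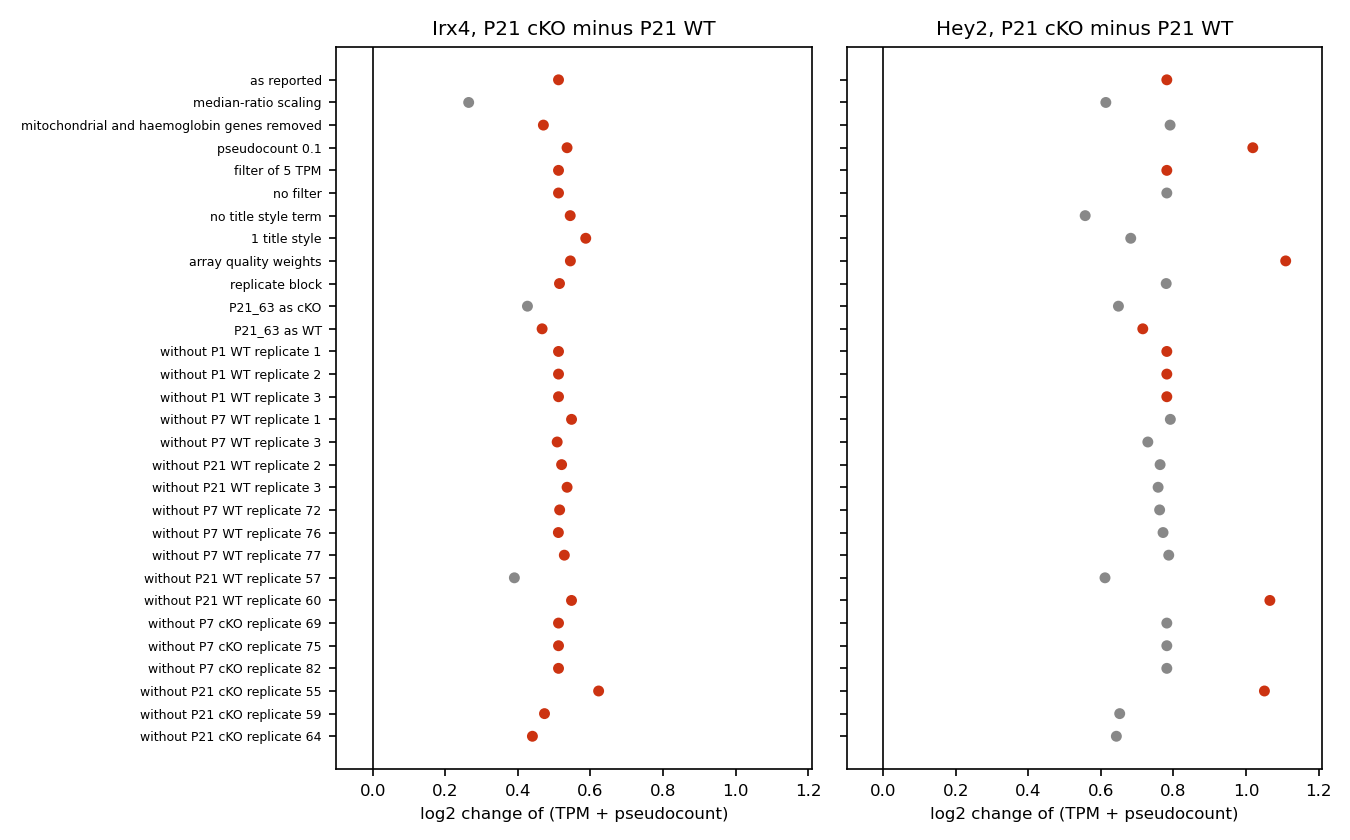
Log2 change of Irx4 and Hey2 in P21 cKO minus P21 WT as reported and under each alternative setting or with each library left out (red, adjusted p under 0.05; grey, not passing). Every value lies above 0 for both genes; Irx4 passes in all but 3 of the settings drawn, while Hey2 passes in a minority of them.

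GATA4 and GATA6 are zinc-finger factors with overlapping roles in the mouse heart, and they parted ways after birth. Gata4 (ENSMUSG00000021944; mm10, chromosome 14, 63198922 to 63271692, minus strand), which also takes part in hypertrophic growth of heart muscle, was at 108, 106 and 80.4 TPM in P1 WT, 103, 101, 91.9, 102 and 107 TPM in P7 WT, and 37.2, 38.1, 41.1 and 43.7 TPM in P21 WT. The first 2 ages overlapped and P21 lay apart below both. P7 WT against P1 WT gave 0.01 ± 0.11 (log2; limma, adjusted p = 0.948), with a 95% interval of -0.22 to 0.24, and P21 WT against P7 WT gave -1.31 ± 0.09 (adjusted p = 3.68e-09), or -0.84 relative to the median gene. After median-ratio scaling this fall was -0.75 (adjusted p = 6.49e-08).

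Gata6 (ENSMUSG00000005836; mm10, chromosome 18, 11052064 to 11085635, plus strand) was lower already by P7. It was at 106, 126 and 77.3 TPM in P1 WT, 40.6, 55.1, 52.6, 48.5 and 50.01 TPM in P7 WT, and 23.1, 24.3, 25.5 and 24.9 TPM in P21 WT, with no overlap between ages. Gata6 was lower in P7 WT than in P1 WT by -1.08 ± 0.16 (log2; limma, adjusted p = 0.000207), and P21 WT against P7 WT gave -0.97 ± 0.13 (adjusted p = 6.8e-06). The ratio of Gata4 to Gata6 within a library was 0.85 to 1.04 in P1 WT, 1.75 to 2.53 in P7 WT and 1.56 to 1.76 in P21 WT, so no P1 library overlapped with a later one.

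Neither GATA factor separated the genotypes. Gata4 was at 87.5, 105 and 94.7 TPM in P7 cKO, against 91.9 to 107 TPM in P7 WT, and at 42.3, 48.8 and 46.3 TPM in P21 cKO, against 37.2 to 43.7 TPM in P21 WT. The P21 libraries overlapped by library 55 of cKO alone, and the change of 0.16 ± 0.11 (log2, adjusted p = 0.289) was -0.06 relative to the median gene. Gata6 was at 49.99, 45.6 and 49.7 TPM in P7 cKO, within the P7 WT range, and at 32.5, 23.2 and 22.8 TPM in P21 cKO, against 23.1 to 25.5 TPM in P21 WT. Library 55 of P21 cKO was the high one. The P21 change of Gata6 was 0.03 ± 0.16 (adjusted p = 0.896), and without that library it was -0.13.

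Nkx2-5 (ENSMUSG00000015579; mm10, chromosome 17, 26838664 to 26845009, minus strand), a homeodomain factor and early marker of the lineage, had the smallest standard error of the set. It stood at 90.5, 85.9 and 91.8 TPM in P1 WT, 55.8, 65.6, 74.9, 73.4 and 74.7 TPM in P7 WT, and 42.8, 38.8, 50.8 and 48.2 TPM in P21 WT. The ages did not overlap, and within P7 and P21 the letter-titled WT libraries were the lower ones, by 0.29 and 0.28 (log2). P7 WT against P1 WT gave -0.55 ± 0.07 (limma, adjusted p = 4.01e-05). P21 WT against P7 WT gave -0.57 ± 0.05 (adjusted p = 1.68e-07), which was -0.10 relative to the median gene and -0.01 after median-ratio scaling (adjusted p = 0.94).

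With the knockout, Nkx2-5 was at 69.8, 65.3 and 68.4 TPM in P7 cKO, inside the P7 WT range by the letter-titled libraries (55.8 and 65.6 TPM), and at 42.1, 44.7 and 45.3 TPM in P21 cKO, inside the 38.8 to 50.8 TPM of P21 WT. Where the median gene was 0.22 higher in P21 cKO, the change of Nkx2-5 was -0.17 ± 0.07 (log2; limma, adjusted p = 0.0761), or -0.39 relative to the median gene. After median-ratio scaling that was -0.43 ± 0.10 and passed (adjusted p = 0.0113), and with mitochondrial and haemoglobin genes removed it was -0.22 (adjusted p = 0.044). The cKO libraries were all number-titled. Against the number-titled WT libraries alone, the change of Nkx2-5 was -0.13 at P7 and -0.17 at P21 (log2), and neither passed. The P21 call was also gained without library 3 of P7 WT (-0.19, adjusted p = 0.0485).

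TBX5 and TBX20 are T-box factors with opposite leanings: TBX5 activates atrial and conduction genes and is the gene mutated in human Holt-Oram syndrome, and TBX20 represses other T-box genes in the chambers. Tbx5 (ENSMUSG00000018263; mm10, chromosome 5, 119832668 to 119885219, plus strand) ranged over 7.16 to 17.2 TPM in P1 WT, 7.1 to 9.12 TPM in P7 WT and 4.85 to 8.89 TPM in P21 WT. The ages overlapped and no age contrast passed (limma adjusted p of 0.33, 0.554 and 0.0998 for P7 against P1, P21 against P7 and P21 against P1). By genotype it ranged over 6.61 to 8.98 TPM in P7 cKO, with 1 library below the P7 WT range, and 6.04 to 10.4 TPM in P21 cKO, with a P21 change of 0.12 ± 0.26 (log2; 95% interval -0.44 to 0.67). It was the only factor with no call in any comparison, although without library 3 of P1 WT its P21 level passed as lower than P1 (-0.79, limma adjusted p = 0.0107). The interval of its P21 genotype change includes changes as large as the one of Irx4.

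Tbx20 (ENSMUSG00000031965; mm10, chromosome 9, 24718138 to 24774303, minus strand) was at 43.8, 50.4 and 22.7 TPM in P1 WT, 36.7, 33.7, 33.7, 35.2 and 41.3 TPM in P7 WT, and 13.6, 13.5, 15.6 and 14.98 TPM in P21 WT. P21 lay apart below both earlier ages, and the low P1 library was number 3. P7 WT against P1 WT gave -0.10 ± 0.20 (log2; limma, adjusted p = 0.759), but -0.44 without library 3 of P1 WT (adjusted p = 0.00694). P21 WT against P7 WT gave -1.26 ± 0.16 (adjusted p = 4.72e-06), which was -0.71 after median-ratio scaling (adjusted p = 0.000697).

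Between genotypes Tbx20 changed side with age without passing. In P7 cKO it was at 27.8, 31.4 and 31.1 TPM, below all 5 P7 WT libraries (33.7 to 41.3 TPM), with a log2 change of -0.29 ± 0.19 (adjusted p = 1). In P21 cKO it was at 20.98, 17.1 and 18.04 TPM, above all 4 P21 WT libraries (13.5 to 15.6 TPM), with a change of 0.30 ± 0.20 (adjusted p = 0.28), or 0.08 relative to the median gene. The difference between these effects was 0.59 ± 0.25 (limma, adjusted p = 0.138). Without library 3 of P1 WT both the P21 change (adjusted p = 0.031) and the difference between ages (adjusted p = 0.00949) passed at the same size.

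MEF2A and MEF2C are MADS-box factors that drive muscle genes, MEF2C in the embryo of the mouse and MEF2A as the main form after birth. Mef2a (ENSMUSG00000030557; mm10, chromosome 7, 67231163 to 67372858, minus strand) ranged over 54.9 to 86.9 TPM in P1 WT, 67.3 to 89.3 TPM in P7 WT and 42.8 to 55.9 TPM in P21 WT. P21 WT was lower than P7 WT by -0.66 ± 0.12 (log2; limma, adjusted p = 0.000109), a change of -0.19 relative to the median gene and not a call after median-ratio scaling (adjusted p = 0.338). In P7 cKO it ranged over 67.5 to 74.6 TPM and in P21 cKO over 54.9 to 56.3 TPM, within or overlapping with WT, with a P21 change of 0.26 ± 0.14 (adjusted p = 0.201). It passed at 0.41 without library 60 of P21 WT (adjusted p = 0.0454), at 0.26 without library 3 of P1 WT (adjusted p = 0.0496) and at 0.36 with array quality weights (adjusted p = 0.0119), and after median-ratio scaling it was 0.0004.

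Mef2c (ENSMUSG00000005583; mm10, chromosome 13, 83504034 to 83667080, plus strand) was the only factor called higher at P7 than at P1. Its level was 24.6, 21.7 and 12.02 TPM in P1 WT, 29.8, 32.03, 21.3, 24.98 and 24.6 TPM in P7 WT, and 17.1, 16.5, 14.5 and 20.3 TPM in P21 WT. Adjacent ages overlapped between P1 and P7 and not between P7 and P21. P7 WT against P1 WT gave 0.59 ± 0.20 (log2; limma, adjusted p = 0.0417), and without library 3 of P1 WT 0.29 (adjusted p = 0.167). That call was lost in 4 of 11 alternative settings and on leaving out any of 9 of the 18 libraries, with adjusted p up to 0.167. P21 WT against P7 WT gave -0.62 ± 0.17 (adjusted p = 0.00325), which was -0.15 relative to the median gene. In cKO hearts Mef2c was at 19.7, 23.1 and 21.8 TPM at P7, against 21.3 to 32.03 TPM in P7 WT, and at 17.8, 22.9 and 21.3 TPM at P21, against 14.5 to 20.3 TPM in P21 WT. Both pairs of groups overlapped, and the P21 change was 0.36 ± 0.20 (adjusted p = 0.208). It was 0.55 without library 60 of P21 WT (adjusted p = 0.0593) and passed with array quality weights, at 0.54 (adjusted p = 0.0108).

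Library 3 of P1 WT enters every contrast with P1. As all 18 libraries share 1 fit, it also enters the spread used in contrasts without P1. Leaving it out kept the P21 genotype changes of Tbx20 (0.30) and Mef2a (0.26) and moved the count of P21 genotype calls from 2 to 4. Against the mean of the other 2 P1 libraries it was lower by -1.02 (log2) for Tbx20 (9091 bases in the deposited table), -0.89 for Mef2c (6277 bases), -0.86 for Tbx5 (3942 bases) and -0.83 for Hey2 (2550 bases), and it was 0.06 higher for Nkx2-5 (1525 bases). The part of gene length in these differences was not tested. Leaving the library out made the fall of Tbx20 at P7 pass and left no call for Mef2c, and the 5 falls at P7 named above were calls with and without it.

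**Figure D4:**
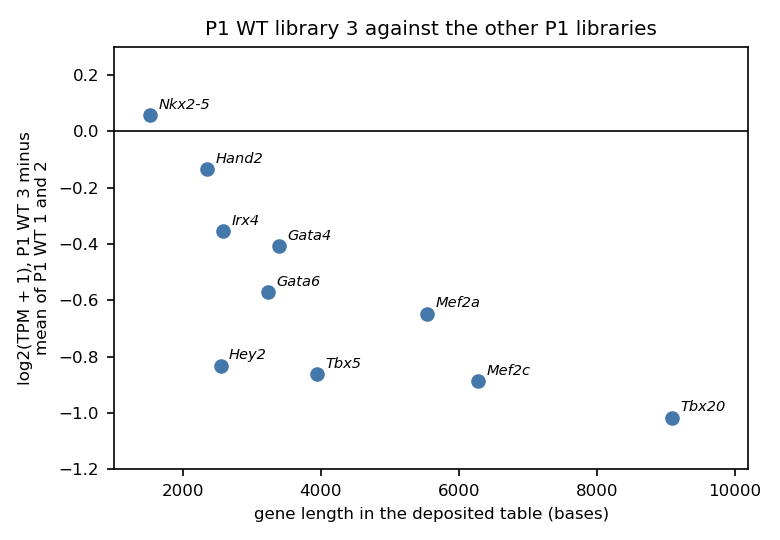
Difference between library 3 of P1 WT and the mean of libraries 1 and 2, as log2(TPM + 1), for each of the 10 factors against the length of the gene in the deposited table in bases. Nkx2-5, the shortest, is at 0.06 and Tbx20, the longest, at -1.02.

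Hand2 values scattered between libraries of 1 group, most in P21 cKO. The Hand2 window of 250 bases before the start (RefSeq, GRCm38.p6, chr8:57320733-57320982, plus strand) is shown because, of the 9 windows searched, it alone held the GATA letters. They are in capitals, as TGATAA beginning 215 bases and TTATCT beginning 172 bases before the start. GATA factors are known activators of Hand2 in the mouse embryo. The GATA letters stood in 16.6% of such windows over all genes, and a role of these matches was not tested.
Hand2: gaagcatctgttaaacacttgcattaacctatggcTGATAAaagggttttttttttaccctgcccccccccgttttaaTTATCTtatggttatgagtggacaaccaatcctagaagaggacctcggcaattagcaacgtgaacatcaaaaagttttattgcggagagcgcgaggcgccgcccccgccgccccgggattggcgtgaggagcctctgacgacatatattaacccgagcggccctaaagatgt
Hand2 (ENSMUSG00000038193; mm10, chromosome 8, 57320983 to 57324633, plus strand) was at 46.7, 56.2 and 46.6 TPM in P1 WT, 23.02, 31.2, 32.7, 41.7 and 42.4 TPM in P7 WT, and 20.95, 23.7, 32.02 and 20.5 TPM in P21 WT. P1 lay above both later ages, and P7 and P21 overlapped. P7 WT against P1 WT gave -0.78 ± 0.23 (log2; limma, adjusted p = 0.0184), a call lost without library 2 of P1 (adjusted p = 0.0694), without library 1 of P7 (adjusted p = 0.097) or with no title style term (adjusted p = 0.0584). P21 WT against P7 WT gave -0.43 ± 0.18 (adjusted p = 0.0459), which was 0.04 relative to the median gene and 0.12 after median-ratio scaling (adjusted p = 0.641). That call was lost in 4 of 11 alternative settings and on leaving out any of 10 of the 18 libraries, with -0.26 without library 60 of P21 WT (adjusted p = 0.227).

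In cKO hearts Hand2 was at 31.5, 33.7 and 33.9 TPM at P7, inside the P7 WT range, and at 33.8, 16.5 and 17.8 TPM at P21, against 20.5 to 32.02 TPM in P21 WT. Libraries 59 and 64 of P21 cKO were the lowest of all P21 libraries and library 55 the highest. The P21 change was -0.33 ± 0.23 (log2; limma, adjusted p = 0.295), or -0.55 relative to the median gene. It passed without library 55 of P21 cKO, at -0.64 (adjusted p = 0.025), and with array quality weights, at -0.67 (adjusted p = 0.0162). Among the P21 cKO libraries, Hand2, Gata6 and Tbx20 were highest in library 55, and the other 7 factors were lowest there.

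Ratios within a library do not depend on how libraries are scaled, and that of Irx4 to Hey2 was higher in every later WT library than at P1. The ratio of Irx4 to Hey2 was 0.88 to 1.32 in P1 WT, 3.49 to 7.20 in P7 WT and 6.63 to 12.9 in P21 WT. In P21 cKO it was 10.04, 5.98 and 6.17, against 7.08, 7.65, 12.9 and 6.63 in P21 WT, and the groups overlapped. The ratio of Mef2a to Mef2c was 3.51 to 4.57 in P1 WT, above every P7 WT library (2.79 to 3.15), and 2.75 to 2.98 in P21 WT. Tbx20 to Tbx5 was 2.93 to 3.95 in P1 WT, 3.97 to 5.17 in P7 WT and 1.56 to 3.21 in P21 WT. The ratio of Nkx2-5 to Hand2 was 1.25, 2.71 and 2.54 in P21 cKO, against 1.59 to 2.35 in P21 WT, with library 55 of cKO below and the other two above the whole WT range. No test was run on these ratios.

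**Figure D5:**
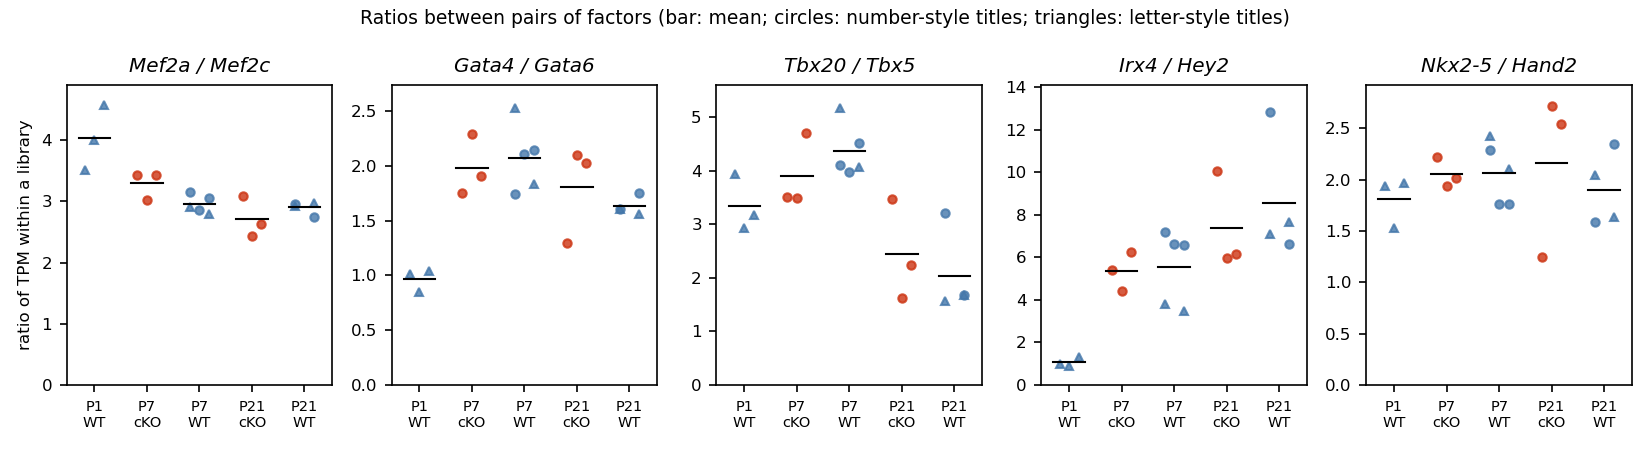
Ratio of TPM between 5 pairs of factors within each library, by group, with group means as bars (red, cKO; blue, WT; circles, libraries titled with a plain number; triangles, letter code). Gata4 to Gata6 and Irx4 to Hey2 are at 0.85 to 1.32 in P1 WT, and at 1.30 or more and 3.49 or more in every later library.

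Of 16 relatives of the 10 factors in the same families 12 were tested, and none passed in P7 cKO against WT. In P21 cKO 4 were higher, beside 19.5% of all genes, and none was lower, beside 1.77%. The 4 were Heyl (11.01 ± 0.842 TPM in cKO and 6.81 ± 0.942 TPM in WT, SD; a rise of 0.64 ± 0.10 on the log2 scale by limma, adjusted p = 0.000649), a NOTCH-responsive relative of Hey2 found in vessel walls, Tbx2, a repressor of chamber genes, and Irx3 and Irx5, which shape electrical conduction. Irx3, like Hey2, was within the WT range in library 55 of P21 cKO, at 8.36 TPM, against 5.2 to 10.95 TPM in WT. Their median change was 0.28 beside 0.22 over all genes. Heyl was also the 1 relative whose P21 effect differed from its P7 effect (0.71 ± 0.12, adjusted p = 0.00582). With age, 4 relatives were lower at P7 than at P1, beside 14.7% of all genes, including Hand1 (log2 change -1.23), Irx1 and Irx2. Hand1, the left-ventricular partner of Hand2 in the mouse embryo, was low at both ages, near the filter of 1 TPM. Its means were 2.05 TPM in P1 WT and 0.268 TPM in P7 WT. Another 2 were higher, beside 13.8%, including Heyl (0.94 ± 0.10, adjusted p = 1.16e-05), the reverse of Hey2, and the median of the 12 was -0.09. Between P21 and P7 WT 9 were lower, beside 64.4% of all genes, and none was higher.

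Of 20 partner and regulator genes, cofactors that bind or modify these factors, 17 were tested. In P21 cKO 1 was higher, beside 19.5% of all genes, and 1 was lower, beside 1.77%. The higher one was Foxp1, a forkhead repressor (0.63 ± 0.19, limma adjusted p = 0.0319). The lower one was Smarcd3, the heart-enriched subunit of the BAF chromatin remodelling complex that works with GATA4 and TBX5 (-0.26 ± 0.09, adjusted p = 0.0437). Its means were 28.8 TPM in P21 cKO and 32.7 TPM in P21 WT, and the groups overlapped (27.5 to 30.5 TPM in cKO and 27.01 to 35.5 TPM in WT). In P7 WT against P1 WT Mrtfb, a cofactor of SRF, and Hdac4, which represses MEF2, were higher, beside 13.8% of all genes, and none was lower, beside 14.7%. In P21 WT against P7 WT 12 were lower, including Zfpm1, a GATA cofactor (-1.001 ± 0.09), and Smarca4, the BAF ATPase (-0.90 ± 0.09), beside 64.4% of all genes, and none was higher, beside 8.1%. Against P1, 12 were lower at P21, beside 57.1% of all genes, and 1 was higher, beside 11%. The medians of the 17 were -0.49 and -0.53, close to the -0.47 and -0.48 of all genes.

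Of 25 textbook targets of the network, 7 were higher in P21 cKO, beside 19.5% of all genes, and 1 was lower, beside 1.77%. Nppa, the atrial natriuretic peptide gene and a shared target of GATA4, NKX2-5 and TBX5, stood at 15241, 8252 and 8176 TPM in P21 cKO, against 170 to 384 TPM in P21 WT, which limma put at 5.31 ± 0.30 on the log2 scale (adjusted p = 5.55e-08). Nppb, its B-type relative, stood at 856 to 1041 TPM in P21 cKO, against 70.6 to 211 TPM in P21 WT (2.69 ± 0.30, adjusted p = 7.8e-05). Ankrd1, a stress-responsive sarcomere protein gene named here for its size after its values were seen, stood at 872 to 1322 TPM in P21 cKO, against 159 to 361 TPM in P21 WT (2.12 ± 0.34, adjusted p = 0.000996). By p-value the next after Nppb were Mybpc3, a thick-filament protein gene (0.44), and Des, which encodes desmin (0.50). For 5 of the 25, those named here, the P21 effect was greater than the P7 effect, and none was smaller. At P7 no target passed, but all 3 cKO libraries lay above all 5 WT libraries for Nppa (560 to 860 TPM in P7 cKO and 243 to 416 TPM in P7 WT) and for Nppb (558 to 752 TPM in P7 cKO and 209 to 475 TPM in P7 WT), a state found in 1.26% of all genes. The P7 changes were 0.80 ± 0.28 for Nppa (log2; limma, unadjusted p = 0.0109, adjusted p = 1) and 0.56 ± 0.28 for Nppb (adjusted p = 1). The median change of the 25 at P21 was 0.14, below the 0.22 of all genes. With age, 8 targets were lower at P7 than at P1, beside 14.7% of all genes, and 2 were higher, beside 13.8%. Myh7, the fetal myosin heavy chain gene, had the smallest p (-1.23 ± 0.06, limma adjusted p = 5.3e-08), and the falls of Nppa (-2.44) and Nppb (-1.82) were larger. Between P21 and P7 12 were lower, beside 64.4% of all genes, among them Mybpc3 and Myl2, and 7 were higher, beside 8.1%, among them Tnni3, the adult troponin I gene (0.54 ± 0.07, adjusted p = 7.22e-06).

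Markers of other cell types moved beside the P21 result, in a comparison where 19.5% of all genes were called higher and 1.77% lower. In P21 cKO all 10 fibroblast markers were higher (summed level 1009 to 1263 TPM in cKO and 648 to 821 TPM in WT), as were 8 of 9 endothelial (538 to 586 TPM in cKO and 346 to 461 TPM in WT), 5 of 8 mural cell (818 to 1102 TPM in cKO and 511 to 753 TPM in WT) and 2 of 3 endocardial markers tested (21.5 to 27.9 TPM in cKO and 13.1 to 16.1 TPM in WT). Cardiomyocyte markers were higher for 2 of 9 (Mybpc3 and Actn2; 36957 to 38899 TPM in cKO and 34946 to 38369 TPM in WT), atrial markers for 1 of 8 (Nr2f2) and none of 7 macrophage, 6 red cell, 5 epicardial or 8 proliferation markers passed. Conduction system markers were lower for 2 of 6 tested (Cacna1g and Hcn4, summed level 10.7 to 12.6 TPM in cKO and 16.5 to 26.1 TPM in WT). Ventricular markers were lower for 1 of 5 (Fhl2) and skeletal muscle markers for 3 of 4 tested. Cacna1g made up most of the difference in the conduction sum, with means of 4.62 TPM in P21 cKO and 13.7 TPM in P21 WT. Tbx3, without a call, went the other way (3.77 and 2.96 TPM). The part of these cell types in the change of Irx4 and Hey2 was not tested. Summed atrial markers varied from library to library, at 73.5, 122 and 291 TPM in P21 cKO libraries 55, 59 and 64, against 111 to 164 TPM in P21 WT. Summed red cell markers stood at 20934, 10703 and 12701 TPM in the same cKO libraries, against 6225 to 16186 TPM in P21 WT. Gata6, Hand2, Irx4 and Hey2 differed between library 55 and the other 2 cKO libraries in the directions given above. The part of atrial or red cell content in these differences was not tested. The summed atrial level was 502 to 1422 TPM in P1 WT, 117 to 464 TPM in P7 WT and 111 to 164 TPM in P21 WT. At P7, 4 of 8 atrial markers were lower than at P1, beside 14.7% of all genes, as were Gata6, Hand2, Hey2, Irx4 and Nkx2-5. Of 5 ventricular markers none was lower and 1 was higher (Fhl2), beside 13.8% of all genes called higher. Proliferation markers were lower for 8 of 8 between P21 and P7 WT, beside 64.4% of all genes.

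The genes most like each factor over the 18 grouped libraries were named by the highest Pearson correlation of log2(TPM + 1) among 8849 genes whose mean reached 5 TPM or more. The libraries share ages, and all genes of a library share its scaling, so these values are a description. The nearest were Nipsnap3b and Ttyh3 for Gata4 (0.99 each), Ctnnal1 and Fzr1 for Gata6 (0.97 each), Prcc (0.97) and Eif3f (0.96) for Nkx2-5, and Golph3 and Galnt11 for Tbx20 (0.98 each). Mef2a ran closest to Impad1 and Erbin (0.98 each), Mef2c to Cpd and Pbrm1 (0.94 each), Irx4 to Srebf2 and Grn (0.98 each) and Hey2 to Ears2 and Htra2 (0.97 each). For Hand2 (Stbd1 and Snhg16, 0.89 each) and Tbx5 (Kank1 and Upk3b, the second a marker of the epicardium, 0.85 each) the nearest gene was less close.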

How the data were processed

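RNA from mouse hearts was extracted with RNA iso Plus and sequenced after SMARTer mRNA-Seq preparation, per the labels. TopHat2 2.0.14, Cufflinks 2.2.1 and mm10 are named in the submitters' processing notes. The deposited table gave the authors' TPM per gene and library; how TPM and gene models were made, and the read depth, are not given in the sources used here, so no counting error can be set. Values in 2 columns of no sample of the series were not used.

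The 10 factors were matched by symbol. In R 4.3.3 with limma 3.58.1 and data.table (version 1.17.8), log2(TPM + 1) of the 14812 genes reaching 1 TPM in 3 or more of the 18 grouped libraries was fitted as group plus title style (letter code or plain number), with eBayes and trend. Letter-titled libraries were all WT. P-values were adjusted within each comparison (Benjamini-Hochberg), and intervals are 95%. Ratios and correlations were computed from TPM per library. Of each list of relatives, partners, targets and cell type markers, up to 4 passing genes with the smallest p were named, or 2 where none passed; other list genes and library values were chosen after their values were seen. The members and lists were chosen with earlier results of these data known. Gene positions are from GENCODE M21, promoter windows from RefSeq GRCm38.p6. The fit was tested on simulated data. Alternatives were another scaling, pseudocount, filters, no title style term, 1 title style, array weights, a replicate block, the ungrouped library counted into either P21 group, and leaving out 1 library at a time.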

Additional observations from a re-analysis of the deposited data

How the results depend on the processing

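Of the 10 factors, 2 passed in P21 cKO against P21 WT, both higher. The count was 1, a higher call, with no filter, with no title style term, with 1 title style and with the replicate block, 1, a lower call (Nkx2-5), after median-ratio scaling, 5 (4 higher and 1 lower) with array quality weights, 2 (1 higher and 1 lower) without mitochondrial and haemoglobin genes and 0 with the ungrouped library (number 63) counted as cKO, and it ran from 0 (without library 57 of P21 WT) to 4 (without library 3 of P1 WT) as each library was left out. In P21 WT against P7 WT 9 passed, and 5 after median-ratio scaling. Between the P21 effect of the knockout and its P7 effect 0 passed, with 6 under array quality weights and 0 to 3 as libraries were left out (3 without library 3 of P1 WT). Replicate numbers are shared only by letter-titled WT libraries and did not pair them (deviations of same-numbered libraries correlated between -0.10 and 0.07), and the block changed no other count of members called. Library 3 of P1 WT enters contrasts without P1 through the shared fit alone. Beyond that, the cause of these differences was not tested.

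These log2 changes turned sign, none of them past the threshold as reported except those of Hand2 between P21 and P7 and of Mef2a between P21 and P1. Median-ratio scaling gave -0.10 (Gata4), -0.22 (Gata6) and -0.11 (Tbx5) for P21 cKO against WT, 0.36 (Tbx5) and 0.12 (Hand2) for P21 against P7 WT, 0.0077 (Tbx5), 0.056 (Mef2a) and 0.51 (Mef2c, a call) for P21 against P1 WT, and -0.021 (Gata4), -0.19 (Gata6) and -0.077 (Tbx5) for the difference between effects. With 1 title style, Irx4 was at -0.023 in P7 cKO against WT and Tbx5 at 0.11 in P21 against P7 WT. For Gata6 in P21 cKO against WT, removing mitochondrial and haemoglobin genes gave -0.015, array weights -0.048 and library 63 as cKO -0.012. Array weights gave -0.073 for Gata4 in P7 against P1 WT and -0.0091 for Gata6 in the difference between effects. Mef2c in P21 against P1 WT was at 0.11 without mitochondrial and haemoglobin genes, 0.047 with the replicate block and 0.0042 with library 63 as WT.

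With libraries left out, P7 cKO against WT ran from -0.15 to 0.041 for Tbx5 and -0.003 to 0.076 for Irx4, and P21 cKO against WT from -0.13 to 0.12 for Gata6 and -0.17 to 0.29 for Tbx5. P7 against P1 WT ran from -0.12 to 0.084 for Gata4, -0.44 to 0.12 for Tbx20 and -0.054 to 0.27 for Mef2a. P21 against P7 WT ran from -0.25 to 0.073 for Tbx5, and P21 against P1 WT from -0.33 to 0.16 for Mef2c. The difference between effects ran from -0.073 to 0.17 for Gata6, -0.037 to 0.36 for Tbx5 and -0.48 to 0.0195 for Hand2. Over all member changes and settings other than leaving out a library, 605 kept direction and side of the threshold, 21 turned sign, 21 lost and 13 gained a call; with libraries left out the numbers were 1013, 20, 35 and 12.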

Other observations

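The ungrouped P21 library, number 63, was at 42.3 TPM for Gata4, 22.7 for Gata6, 47.2 for Nkx2-5, 7.07 for Tbx5, 14.2 for Tbx20, 52.8 for Mef2a, 20.5 for Mef2c, 23.5 for Hand2, 2.14 for Hey2 and 19.6 for Irx4. Its ratio of Irx4 to Hey2 was 9.15.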
